A study of Homo sapiens with 4 samples.

Results

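The genes described here encode the core of class I antigen presentation: the light chain B2M, the heavy chains HLA-B, HLA-C and HLA-E, the peptide transporter subunits TAP1 and TAP2, and the loading chaperone TAPBP (tapasin). These 7 genes, of 20935 named genes in the series, were picked by symbol with earlier results of these data known, and B2M was picked for its higher value on the array labelled with both Her2 and mutant PIK3CA. They are read by 42 of the table's 53617 probe sets. For each gene the probe set with the highest mean over the 4 arrays was used, and because HLA-B and HLA-C then fall on 1 shared probe set, the 7 genes rest on 6.

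Class I molecules display short peptides from inside the cell to CD8 T cells and natural killer cells. Proteasomes cut proteins into peptides, the TAP1-TAP2 transporter carries them into the endoplasmic reticulum, and tapasin holds empty heavy chains next to the transporter until a peptide binds. A heavy chain needs B2M, encoded on a different chromosome from the other members, to fold and reach the cell surface. HLA-B and HLA-C are classical, highly polymorphic heavy chains, whereas HLA-E varies little and presents signal peptides of other class I molecules to natural killer cell receptors. Interferons raise many of these genes together, and most epithelial cells express them at a resting level.

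The cells were MCF10A, a non-tumorigenic human breast epithelial line, untreated and grown in SFIHE medium, and each sample carried 1 stable transfection. The 4 groups, in the labels' own names, were Her2 and PIK3CA-H1047R together, PIK3CA-H1047R alone (the labels' mutant PIK3CA, an activating variant of the kinase subunit), Her2 alone (the receptor tyrosine kinase ERBB2), and LacZ, a bacterial enzyme gene used as the control. Each group was measured once, on 1 Affymetrix array. The differences below therefore have no replicates behind them, no SD can be given and no test was made. The labels do not give the promoter of the transfected genes or say whether a line is a clone or a pool.

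The values are RMA values on the log2 scale, where a difference of 1 is 2-fold. Medians over all probe sets lay between 1.13 and 1.17 on the 4 arrays. Genes whose highest value on the 4 arrays was at least 5 were counted, which left 4313. The probe set for the introduced ERBB2, annotated also to MIR4728, went against the labels. It read 7.39 on the array labelled with both genes, 8.48 on the array labelled mutant PIK3CA, 4.29 on the array labelled Her2 and 5.96 on the array labelled LacZ. Directions below are therefore given for arrays by their labels, and each one that involves a single-gene array is open to this doubt. The epithelial label was checked on marker lists. KRT5, a basal keratin, read between 7.08 and 7.52 on all arrays, but other epithelial markers read lower with both labels than with LacZ, with CDH1 at -4.27, EPCAM at -2.22, LAMB3 at -1.67 and ITGB4 at -1.30 log2 units. KRT14, another basal keratin and below 5 on all arrays, was higher by 1.96. The luminal keratins KRT8, KRT18 and KRT19, also below 5 on all arrays, differed by 0.01, -0.27 and -0.25. The leukocyte marker PTPRC (CD45) stayed between 0.53 and 0.93.

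To show what these genes have in common outside the array values, the last 200 bases before the annotated start are given for B2M, for the pair of classical heavy chains, for TAP1 and for TAPBP. The sequences are RefSeq's, build GRCh38.p14, 5′ to 3′ on each gene's own strand. B2M lies on the plus strand (chr15:44711317-44711516). The others lie on the minus strand, with HLA-B at chr6:31357180-31357379, HLA-C at chr6:31272093-31272292, TAP1 at chr6:32853705-32853904 and TAPBP at chr6:33314079-33314278. Capitals mark matches to the core bound by interferon regulatory factors (AANNGAAA) and to the kB consensus bound by NF-kB proteins, on either strand.
B2M: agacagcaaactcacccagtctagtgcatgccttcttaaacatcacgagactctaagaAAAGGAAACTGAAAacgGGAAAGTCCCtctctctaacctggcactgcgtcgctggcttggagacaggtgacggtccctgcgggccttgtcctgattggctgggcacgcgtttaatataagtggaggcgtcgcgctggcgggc
HLA-B: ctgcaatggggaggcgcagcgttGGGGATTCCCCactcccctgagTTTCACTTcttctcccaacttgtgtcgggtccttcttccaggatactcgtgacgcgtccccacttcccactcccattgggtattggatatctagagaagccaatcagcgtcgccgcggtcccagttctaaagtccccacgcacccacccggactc
HLA-C: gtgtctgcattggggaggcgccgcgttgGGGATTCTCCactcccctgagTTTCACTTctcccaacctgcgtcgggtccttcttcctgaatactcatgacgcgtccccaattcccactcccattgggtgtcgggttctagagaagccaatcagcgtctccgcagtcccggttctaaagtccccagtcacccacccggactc
TAP1: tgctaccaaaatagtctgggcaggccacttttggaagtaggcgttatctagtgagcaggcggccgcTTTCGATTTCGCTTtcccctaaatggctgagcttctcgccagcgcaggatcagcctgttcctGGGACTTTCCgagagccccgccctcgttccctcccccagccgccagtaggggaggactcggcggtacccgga
TAPBP: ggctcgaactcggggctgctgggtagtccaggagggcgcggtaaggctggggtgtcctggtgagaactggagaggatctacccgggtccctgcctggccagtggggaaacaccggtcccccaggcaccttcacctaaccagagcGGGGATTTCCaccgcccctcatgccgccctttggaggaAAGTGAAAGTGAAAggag

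Within the 250 bases before the start, 6 of the 6 members with an entry in the RefSeq promoter table held the AANNGAAA core, against 20.6% of 27305 promoters of all genes. The kB consensus was matched in 5 of the 6, against 9.57% of all promoters. Of the other motifs searched on both strands, CCAAT was matched in 4 of the 6, against 33.0% of all promoters, the half-site TGACG in 4 against 21.7%, and the GC box GGGCGG in 4 against 42.3%. The STAT motif TTCNNNGAA was matched in 0 of the 6, against 6.78%. In B2M overlapping matches to the core ran from 142 to 129 bases before the start and the kB match from 125 to 116. HLA-B had its core at 155 to 148 and its kB matches, overlapping and on both strands, between 177 and 167. HLA-C had its core at 151 to 144 and a single kB match, on the plus strand of the promoter as printed, at 172 to 163. TAP1 carried a pair of overlapping cores between 134 and 121 bases before the start with a kB match at 72 to 63, and TAPBP a pair between 18 and 5 with a kB match at 56 to 47. TAP2 held the core, as overlapping matches between 62 and 49 bases before the start, but no kB match. These matches describe the letters in the window and do not show binding. HLA-E has no entry in the table.

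B2M, the light chain shared by every class I molecule, was the member with the widest spread over the arrays. It read 8.04 on the array labelled with both genes, 6.48 on the array labelled mutant PIK3CA, 6.0 on the array labelled Her2 and 5.73 on the array labelled LacZ. The array with both labels stood apart from the other 3, which lay within 0.75 log2 units of each other. Against the LacZ array B2M differed by 2.31 (4.96-fold), and 172 of the 4313 counted genes had a higher difference. Since B2M was picked for this value, it is a description and supports nothing by itself.

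The other B2M differences were ordered in the same way. With both labels B2M was higher by 2.04 than on the array labelled Her2 and by 1.56 than on the array labelled mutant PIK3CA. Neither single-gene array reached 2-fold over LacZ, with differences of 0.75 for mutant PIK3CA and 0.27 for Her2. The sum of these fell short of the value with both labels, and the departure from additivity (the value with both labels minus each single value plus LacZ) was 1.29. Of all counted genes, 9.48% departed by at least 1 log2 unit above 0 and 9.07% below 0, and 268 departed by more than B2M. The differences of 2.04 and 1.56 and this departure use the same value with both labels for which B2M was picked. They too are a description only.

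**Figure D1:**
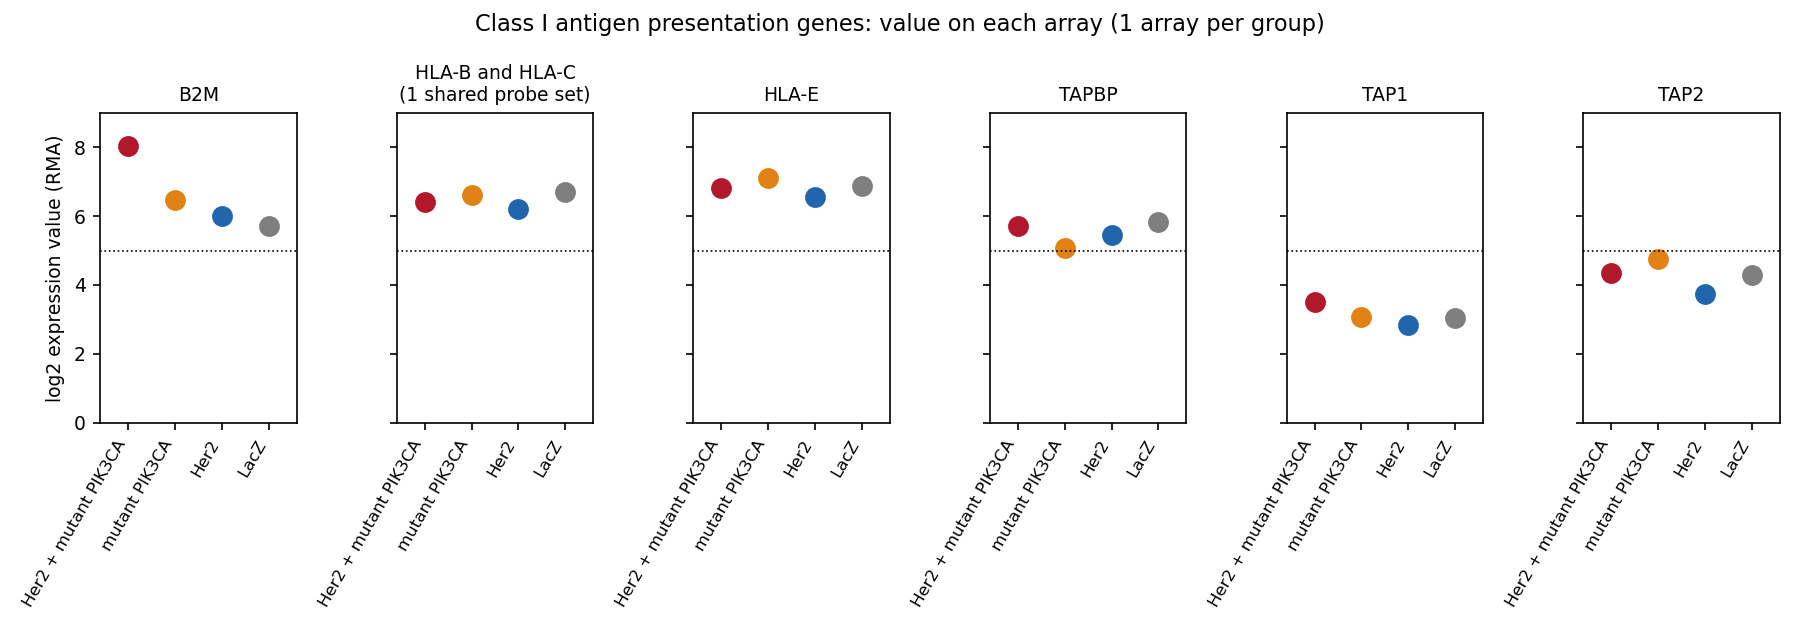
Log2 expression value (RMA, vertical axis) of each member on each of the 4 arrays, 1 point per array, with the count limit of 5 as a dotted line. B2M lies at 8.04 on the array labelled with both genes and between 5.73 and 6.48 on the other 3, while no other member differs by 2-fold between any array and LacZ.

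The classical heavy chains did not follow B2M. The probe set annotated to HLA-C and HLA-B together read 6.40 with both labels, 6.63 with mutant PIK3CA, 6.21 with Her2 and 6.69 with LacZ. All 4 values lay within 0.48 log2 units, and the array with both labels was not the highest. Its difference from LacZ was -0.29, which 2859 of the counted genes exceeded. The departure from additivity was 0.25.

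HLA-C has 6 further probe sets of its own symbol, and the closest in level (17029003) gave nearly the same values, at 5.85 with both labels, 6.06 with mutant PIK3CA, 5.65 with Her2 and 6.11 with LacZ. Over the 7 HLA-C probe sets the difference of both labels minus LacZ ranged from -0.29 to 0.65, with 5 below 0 and 2 above. The 2 above 0 were 17034236, at 4.73 with both labels against 4.17 with LacZ, and 17036486, at 4.93 against 4.27. HLA-C thus has no single direction across its probe sets on that array, and 0 of the 7 reached 2-fold. HLA-B has 1 probe set of its own symbol (17017147), which read 1.74 with both labels, 1.71 with mutant PIK3CA, 1.16 with Her2 and 2.10 with LacZ. Those values lie near the array medians, and differences there say little about HLA-B itself. These genes are near copies of each other and vary between people, and how the probe sets separate related sequences was not analysed here.

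HLA-E, the non-classical heavy chain, was nearly level. It read 6.82 with both labels, 7.12 with mutant PIK3CA, 6.55 with Her2 and 6.87 with LacZ. The array labelled mutant PIK3CA was highest and the array labelled Her2 lowest, 0.57 apart, and the difference of both labels minus LacZ was -0.05. Of its 11 probe sets, 7 carried these values to within 0.02 on every array. The other 4 shared a different and low pattern, at 0.86 with both labels, 1.33 with mutant PIK3CA, 0.79 with Her2 and 2.04 with LacZ. Those 4 were at least 2-fold lower on the arrays labelled with both genes and Her2 than on LacZ, in a range close to the array medians.

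TAPBP, which links empty heavy chains to the transporter, took its lowest value under a different label. It read 5.72 with both labels, 5.08 with mutant PIK3CA, 5.46 with Her2 and 5.82 with LacZ. The array labelled mutant PIK3CA was thus the low one, 0.74 below LacZ, and 3932 of the counted genes had a higher difference there. All 5 TAPBP probe sets were lower on that array than on LacZ, by -0.80 to -0.73 log2 units. With both labels TAPBP differed from LacZ by -0.10 only, so its departure from additivity was 0.99, the highest among the members after B2M.

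The transporter subunits stayed below the count limit on every array. TAP1 read 3.52 with both labels, 3.08 with mutant PIK3CA, 2.83 with Her2 and 3.05 with LacZ. It shares with B2M the highest value under both labels, but the difference from LacZ was 0.46, and 1308 of the counted genes had a higher one. All 8 TAP1 probe sets had this direction, and 7 of them carried the same values to within 0.02. TAP2 read 4.35 with both labels, 4.75 with mutant PIK3CA, 3.74 with Her2 and 4.28 with LacZ. Its highest array was that labelled mutant PIK3CA, 1.01 above the array labelled Her2. All 9 TAP2 probe sets had that direction (0.49 to 1.01), and the 2 that reached 2-fold carry the same values. The lowest of these differences, 0.49, came from 17017935, which is annotated also to HLA-DOB and read only 0.77 to 1.40. The partners of the transporter therefore did not share an order over the 4 arrays.

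**Figure D2:**
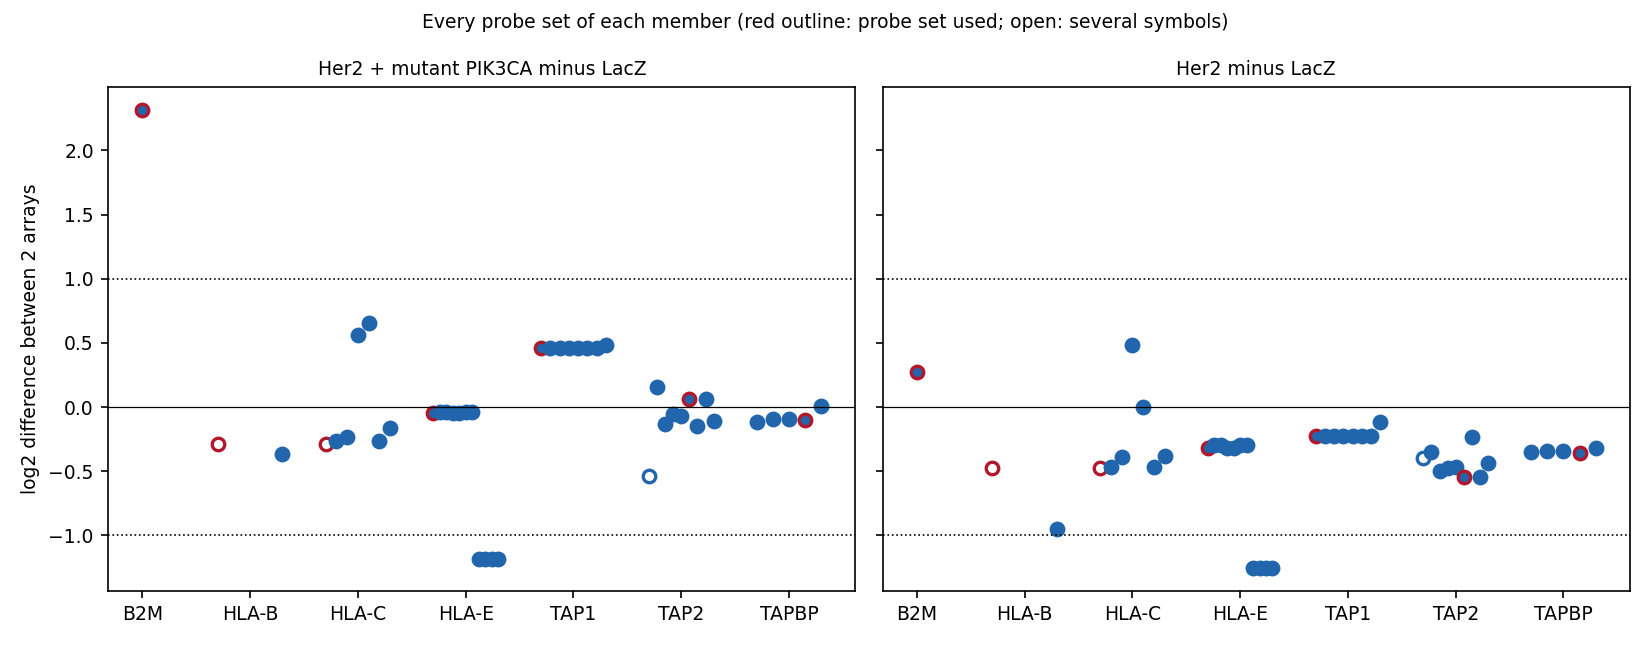
Log2 difference (vertical axis) for every probe set of each member, with both genes minus LacZ on the left and Her2 minus LacZ on the right; red outlines mark the probe set used and open symbols carry several gene symbols. The single B2M probe set lies at 2.31 on the left, HLA-C probe sets spread from -0.29 to 0.65, and 4 low-reading HLA-E probe sets lie below -1 in both panels.

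HLA-B and HLA-C share 1 probe set but are counted as separate members here and in the next paragraph, so 1 reading stands for both. HLA-B reaches the count limit only through that probe set. Of the 7 members, 5 reached the count limit, and 1 of these, B2M, was at least 2-fold higher with both labels than with LacZ, with 0 lower. The background was 13.8% of counted genes at least 2-fold higher and 11.1% lower (24.9% in all). B2M was chosen on this contrast, so the count carries no weight. The median over all 7 was -0.05, against 0.04 for all counted genes, and without B2M the members ran from -0.29 to 0.46. Without the limit on low values the count was again 1 (B2M) of 7 higher and 0 lower, against 6.51% and 4.44% of all 20935 genes. Against the array labelled mutant PIK3CA the count was 1 (B2M) higher and 0 lower, with a background of 10.0% higher and 8.90% lower (18.9% in all). Against the array labelled Her2 it was 1 (B2M) higher and 0 lower, with a background of 9.09% and 6.12% (15.2% in all). Each of these counts rests on the same B2M value with both labels for which the gene was picked, so none carries weight.

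For mutant PIK3CA minus LacZ, 0 of the 5 counted members differed 2-fold, against 7.07% of counted genes higher and 4.08% lower (11.2% in all). The members pointed both ways, with 4 above 0 and 3 below, where TAP1 at 0.02 turned to -0.05 when arrays were centred on their medians. For Her2 minus LacZ the count was also 0 of 5, against 2.94% higher and 2.57% lower (5.52% in all). There the median over all counted genes was 0.02 log2 units. Of the 7 members 6 lay below LacZ, between -0.54 and -0.23 log2 units, and B2M alone above it. Over single probe sets the same direction held for all but 1 of the 7 of HLA-C, 17034236, at 0.49. For mutant PIK3CA minus Her2 the count was 0 of 5, against 6.14% higher and 3.69% lower (9.83% in all). In that comparison 6 of 7 lay above 0, beside a median of 0.05 over all counted genes. These 2 comparisons share the array labelled Her2, as does that of both labels minus Her2. In the latter all 7 lay above 0, beside a median of 0.01 over all counted genes.

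The array labelled Her2 held the lowest value for 4 of the 6 probe sets (the HLA-B and HLA-C probe set, HLA-E, TAP1 and TAP2), against 17.6% of all counted genes with their lowest value there. It is also the array with the lowest ERBB2 value. Each of the 4 gaps to LacZ was under 2-fold, and with 1 array a shift of this size cannot be told apart from a difference between arrays.

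**Figure D3:**
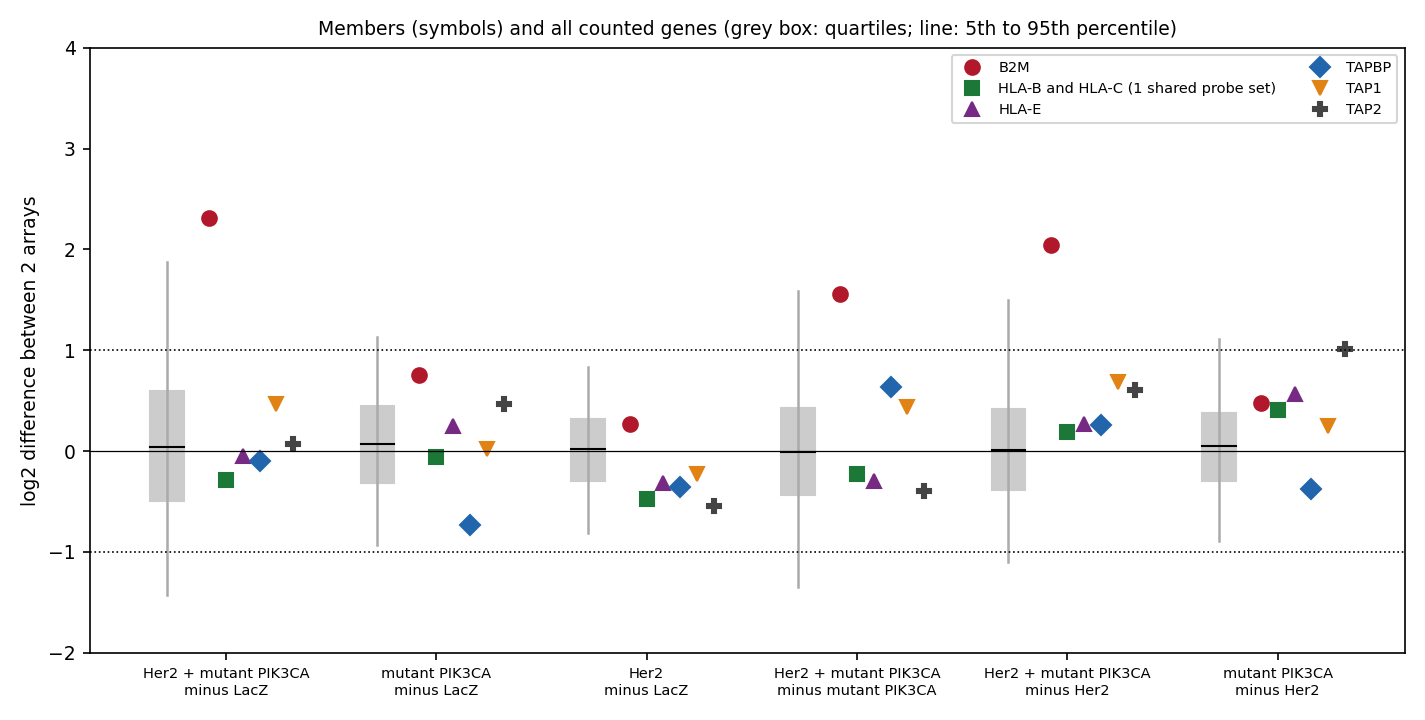
Log2 difference (vertical axis) of each member in the 6 comparisons (horizontal axis), beside a grey box for the quartiles of all 4313 counted genes and a line for their central range; dotted lines mark 2-fold. B2M lies at 2.31, 1.56 and 2.04 in the 3 comparisons that involve both labels against another array, and all members except B2M lie below 0 in Her2 minus LacZ.

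The genes most like B2M over the 4 arrays were sought among 1573 counted genes that spanned at least 1 log2 unit, members left out, by the root mean square difference of values centred on each gene's mean. They were VRK1, a nuclear protein kinase (0.08 log2 units), DBF4, the regulatory subunit of the CDC7 replication kinase (0.10), CA8 (0.12), TMPO, a protein of the nuclear lamina (0.14), and SLC25A40, a mitochondrial carrier (0.14). VRK1 read 5.03 with both labels, 3.26 with mutant PIK3CA, 2.88 with Her2 and 2.68 with LacZ. With 4 arrays such likeness is a description only. For TAP1 the closest were S100A10 (0.13), CTSZ, a lysosomal protease (0.14), ABLIM3 (0.15), MRPL15 (0.16) and SQLE (0.17). No gene appeared for both.

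Other measures moved with the array that carries the high B2M value. The fibroblast markers LUM and DCN read 6.26 and 5.06 with both labels, against 0.78 and 0.73 with LacZ, while COL1A1, COL1A2 and PDGFRB were at or below 2.24 on all arrays. On the log2 scale the summed level of the 5 fibroblast markers measured was 6.87 with both labels, and between 3.48 and 3.55 on the other 3. The epithelial cadherin CDH1 read 5.07 with both labels, against 9.34 with LacZ. On the log2 scale the summed level of 5 luminal markers was 6.63 with both labels, 9.64 with mutant PIK3CA, 9.33 with Her2 and 9.83 with LacZ. That sum rests mainly on CDH1 and EPCAM, the only luminal markers to reach the count limit. The median of the 5 was 2.41 with both labels and 2.68 with LacZ. The summed level of 4 basal markers was 9.16 with both labels, 9.84 with Her2 and 10.32 with LacZ, and highest with mutant PIK3CA. Of 5 genes often used as expression standards, HPRT1, a purine salvage enzyme, read 6.26 with both labels, 4.89 with mutant PIK3CA, 4.57 with Her2 and 4.73 with LacZ, and was thus at least 2-fold higher with both labels than on each other array, as B2M was. The other 4 (GAPDH, ACTB, TBP and PPIA) differed between both labels and LacZ by -0.31 to 0.06. GAPDH (3.47 to 3.67) and ACTB (2.55 to 3.72) stayed below the count limit throughout, so their small differences say little about stability. In mutant PIK3CA minus Her2, ACTB differed by 1.17, past 2-fold. Of 8 leukocyte markers, 2 reached the count limit with both labels and with mutant PIK3CA, and 1 with Her2 and with LacZ. LCP1 was above it on all arrays. CD68, a lysosomal protein, read 6.78 with both labels, 6.24 with mutant PIK3CA, 4.94 with Her2 and 4.68 with LacZ, so its rise was not particular to 1 array. In both labels minus LacZ the 8 markers had a median of 0.01, with 4 above 0 and 4 below. The part of these measures in the B2M value was not tested. In such bulk RNA, a change in the mix of cells and a change in the RNA per cell cannot be told apart.

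The rest of the pathway was followed in lists chosen with earlier results known. Over the 34 counted genes of these lists, 4 were at least 2-fold higher with both labels than with LacZ and 1 lower, where all counted genes gave 13.8% and 11.1%, so that the lists held no larger share of called genes than the background. Immunoproteasome subunits replace standard catalytic subunits after interferon and favour peptides that fit class I grooves. None of the 2 counted members differed 2-fold between both labels and LacZ. The assembly factor POMP differed by 0.76 and the activator subunit PSME1 by 0.15, with a median of 0.45, against 0.04 for all counted genes. PSMB8, which lies beside TAP1 in the genome and stayed below the count limit, read 4.98 with both labels, 4.19 with mutant PIK3CA, 4.18 with Her2 and 4.31 with LacZ. PSMB9, the other neighbour of TAP1, read 2.34 with both labels, 1.58 with mutant PIK3CA, 1.41 with Her2 and 1.82 with LacZ. Both were highest with both labels, as were TAP1 and B2M, by less than 2-fold. All 6 measured subunits were higher with both labels than with mutant PIK3CA (0.16 to 1.10) and than with Her2 (0.46 to 1.02). The medians over all 20935 genes were -0.03 and -0.01 in these comparisons. In each of these comparisons 1 of the 6 reached 2-fold, PSME2 at 1.10 and PSMB10 at 1.02, named after their values were seen and both below the count limit. Of all 20935 genes without that limit, 5.28% were at least 2-fold higher and 3.48% lower with both labels than with mutant PIK3CA, and 4.41% higher and 2.64% lower than with Her2. PSMB10 read 3.12 with both labels, 2.62 with mutant PIK3CA, 2.10 with Her2 and 3.26 with LacZ. It was thus not higher with both labels than with LacZ (-0.15), and its Her2 value lay 1.16 below LacZ.

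The constitutive proteasome subunits gave no common direction. Of 5 counted genes, 0 differed 2-fold between both labels and LacZ, with PSME3, a nuclear activator, at -0.73, and the catalytic subunits PSMB5, PSMB6 and PSMB7 at 0.34, 0.29 and 0.17. The median was 0.17. Peptide-loading chaperones were level too, with 0 of 4 counted genes past 2-fold and a median of 0.00. The lectin chaperones that act on heavy chains went apart, with CALR at 0.42 and CANX at -0.34, and the folding sensor UGGT1 and the chaperone HSPA5 stood at 0.08 and -0.07.

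Among peptidases that trim or destroy class I peptides, 1 of 3 counted genes was at least 2-fold higher with both labels than with LacZ. All counted genes gave 13.8% higher and 11.1% lower. The 1 gene was the endopeptidase NRDC at 1.02, which fell short of 2-fold (0.94) when arrays were centred on their medians. NRDC read 8.12 with both labels, 7.95 with mutant PIK3CA, 7.13 with Her2 and 7.10 with LacZ, so that the arrays carrying the mutant PIK3CA label stood above the others. TPP2, a cytosolic exopeptidase, differed by 0.72. BLMH differed by -0.23, but read 3.38 on the array labelled mutant PIK3CA against 5.06 on LacZ. In the secretory route, 2 of 9 counted genes were at least 2-fold higher and 1 lower, against 13.8% and 11.1% of all counted genes, with a median of -0.25. SEC23A and SEC24D, coat subunits of vesicles that leave the endoplasmic reticulum, differed by 1.42 and 1.19. SPPL3, an intramembrane protease that clips glycosyltransferases and so alters sugars on the cell surface, differed by -1.33, and NBR1, an autophagy receptor, by -0.64.

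No counted transcription regulator of class I genes reached 2-fold. Of 5 counted regulators 0 differed 2-fold between both labels and LacZ, and the median was -0.06. RELA, an NF-kB subunit, differed by -0.82, NFYB and NFYA, subunits of the CCAAT-binding factor, by 0.67 and -0.33, and NFKB1 by 0.10. NLRC5, the class I transactivator, read between 1.27 and 1.53 and IRF1 between 2.29 and 2.55 on the 4 arrays, both named after their values were seen. RFX5, a subunit of the X-box factor that works with NLRC5, read 3.82 with both labels, 2.48 with mutant PIK3CA, 2.30 with Her2 and 2.71 with LacZ, below the count limit and also named afterwards. CREB1, which binds the same promoter module, was likewise low and read 4.49 with both labels against 3.46 with LacZ. Among interferon receptors and their kinases, 1 of 4 counted genes was at least 2-fold higher, IFNGR1 at 1.16, and 0 lower. Over all counted genes the shares were 13.8% higher and 11.1% lower, and 1 gene of so few says little beside them. IFNGR1, the ligand-binding chain of the interferon gamma receptor, read 5.78 with both labels, 4.59 with mutant PIK3CA, 5.63 with Her2 and 4.62 with LacZ, so the arrays that carry the Her2 label were the high ones. JAK1, the kinase bound to several interferon receptors, differed by 0.69, IFNAR1 by 0.16 and IFNGR2 by -0.13. JAK2, which serves the interferon gamma receptor and stayed below the count limit, read 3.73 with both labels, 3.26 with mutant PIK3CA, 2.40 with Her2 and 2.25 with LacZ, and was named after its values were seen.

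**Figure D4:**
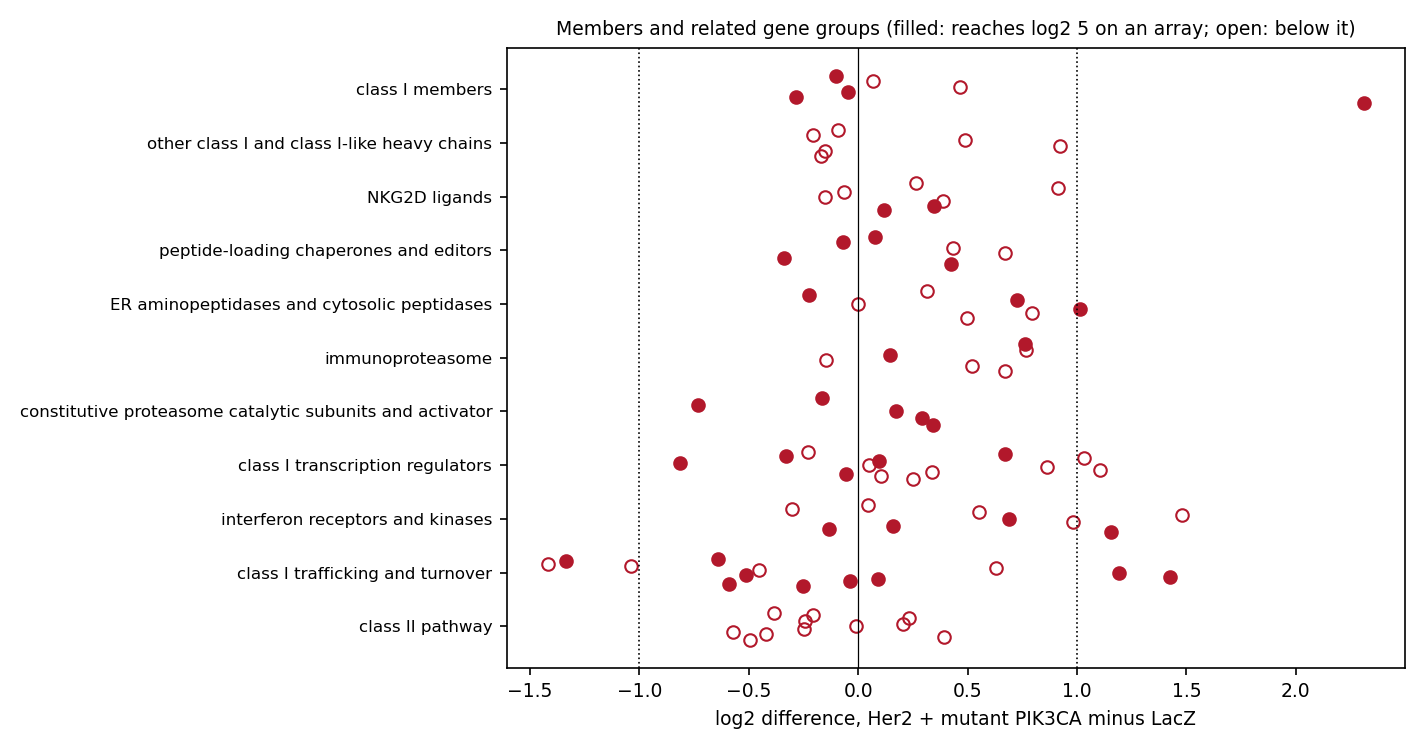
Log2 difference of both genes minus LacZ (horizontal axis) for the members, with the shared HLA-B and HLA-C probe set drawn once, and for each related gene group (vertical axis); filled points reach a log2 value of 5 on an array, open points stay below it, and dotted lines mark 2-fold. B2M at 2.31 is the point farthest to the right, and immunoproteasome subunits lie between -0.15 and 0.77.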

How the data were processed

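RNA from 4 MCF10A samples (400 ng each, column-purified) was hybridised to 1 array each after labelling with an Affymetrix whole-transcript kit, per the labels' protocols. The deposited table holds a log2 value for each probe set and array. The submitters' processing notes name oligo and RMA, a method that removes background, brings arrays to a common distribution and combines probes, so that shifts of a whole array are partly lost. Which versions the authors ran is not given in the sources read here. Base 2 was inferred from the method and from values between -0.77 and 12.35. The number of arrays limits the precision.

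Probe sets were named from the platform annotation, with 1 symbol for 23871, several for 1842 and none for 27904, and 90 symbols were updated through the RefSeq table of assembly GRCh38.p14. Genes were counted on probe sets with 1 symbol (the highest mean where several) that reach 5 on an array, leaving out small RNAs, ERBB2 and PIK3CA. Members also used probe sets with several symbols, marked in the text. A difference of at least 2-fold (log2 of 1) was called. With 1 array per group no test was possible, and the counting was tested on simulated data. Members and lists were chosen with earlier results of these data known. All members were named, up to 4 counted genes per list by the size of both labels minus LacZ, and 5 genes most like B2M and TAP1. The list of interferon-stimulated genes was added after seeing the data. Normalizations used limma 3.58.1 in R 4.3.3, and pandas 2.3.3 in Python 3.11.15 did the rest. Alternatives were quantile normalization, cyclic loess, median centring, the mean of all probe sets, a 1.5-fold threshold, no filter, a filter at 7, only probe sets with 1 symbol, and exchanged labels of the single-gene arrays.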

Additional observations from a re-analysis of the deposited data

How the results depend on the processing

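The B2M difference of both labels minus LacZ stayed between 2.24 and 2.31 over 8 settings, the main one included. Its departure from additivity stayed between 1.29 and 1.39 over 6. B2M has 1 probe set, with 1 symbol, so only the 3 other scalings could change these values. The remaining settings return the main values by construction and say nothing on their stability. Of 210 recomputed member differences, 0 that reached 2-fold changed sign, and 9 moved by at least 0.5 log2 units, all of them on exchanging the labels of the single-gene arrays. Differences under 2-fold could turn, as for HLA-E in mutant PIK3CA minus LacZ (-0.10 to 0.25) and HLA-C in both labels minus mutant PIK3CA (-0.22 to 0.16). Over the 3 other scalings 2 of 102 member differences changed sign, both near 0 and both on median centring: TAP2 in both labels minus LacZ (-0.01) and TAP1 in mutant PIK3CA minus LacZ (-0.05). TAP1 and TAP2 lie below the filter and were rescaled by median centring only. HLA-B fell under the filter, and so has no value, with the mean of its probe sets or with only probe sets of 1 symbol. TAPBP passed a departure of 1 under some settings (0.98 to 1.07).

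With a 1.5-fold threshold the members called were 2 in mutant PIK3CA minus LacZ and 2 in both labels minus mutant PIK3CA, against 0 and 1. Without the filter 1 member (TAP2) was called in mutant PIK3CA minus Her2, against 0. Counts over all genes and over the antigen presentation lists are given next in the order both minus LacZ, mutant PIK3CA minus LacZ, Her2 minus LacZ, both minus mutant PIK3CA, both minus Her2, and mutant PIK3CA minus Her2. The main counts were 1076, 481, 238, 816, 656 and 424 genes. They were 2063, 1386, 960, 1643, 1470 and 1185 at 1.5-fold, 2292, 951, 739, 1835, 1476 and 1106 without the filter, and 301, 130, 55, 243, 209 and 123 with the filter at 7. The first lowers the fold limit over the same 4313 genes. The other settings change how many genes are admitted, to 20935 without the filter and 1196 with the filter at 7. For the lists the counts were 5, 1, 1, 3, 2 and 2 of 34 genes in the main setting, and 13, 8, 7, 7, 10 and 4 of 34 at 1.5-fold. They were 10, 4, 5, 6, 6 and 5 of 83 without the filter, and 1, 0, 0, 0, 1 and 0 of 11 with the filter at 7. In both labels minus LacZ at 1.5-fold, the 13 of 34 list genes stand beside 2063 of 4313 over all counted genes. On median centring NRDC (0.94) was no longer called in both labels minus LacZ, and the list count was 4. The 1 list gene in Her2 minus LacZ (IFNGR1) became 0 after quantile normalization and after median centring. The share of called genes that were higher was 63.4% in mutant PIK3CA minus LacZ, against 49.9% after quantile normalization and 51.9% after cyclic loess, and 59.8% in both labels minus Her2, against 49.2% and 44.9%. No paired analysis was possible because each group has 1 array.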

Other observations

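Ligands of NKG2D, the receptor by which natural killer cells detect stressed cells, were followed beside the class I genes. MICA read 5.86 with both labels, 5.36 with mutant PIK3CA, 5.14 with Her2 and 5.74 with LacZ, and MICB read 5.20, 4.78, 4.32 and 4.86 on the same arrays. As for most class I members, their lowest value was on the array labelled Her2, and 0 of 2 counted ligands differed 2-fold from LacZ with both labels. The class II pathway stayed low, with 11 genes measured, 0 counted and a highest value of 4.04 (HLA-DQA1). Other class I and class I-like heavy chains were low as well, with 0 of 6 measured genes counted and a highest value of 4.21 (HLA-F).

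Many interferon-stimulated genes were near background, and 4 of 40 measured reached the count limit. Between both labels and LacZ, 11 of the 40 were at least 2-fold higher without the filter and 0 lower, where all 20935 genes gave 6.51% higher and 4.44% lower. IFI6 read 6.81 with both labels, 1.68 with mutant PIK3CA, 2.64 with Her2 and 2.15 with LacZ, whereas ISG15 differed between both labels and LacZ by 0.04 and OAS1 by -0.12. This list was chosen after the data were seen.

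Genes that neighbour B2M were read for the same comparison, in which B2M differed by 2.31. SPG11 differed by 0.31, EIF3J by 0.28, PATL2 by -0.42, TRIM69 by -0.11, TERB2 by -0.13 and DUOX2 by 0.18. CTDSPL2, 4 genes away, differed by 1.21, and SPG11 alone of these reached the count limit.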
